A study of Mus musculus with 6 samples.

Results

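Cholesterol synthesis was followed in gonadal white adipose tissue (gWAT) through 7 genes, 6 enzymes of the pathway (*Hmgcs1*, *Idi1*, *Fdps*, *Fdft1*, *Sqle* and *Lss*) and *Insig1*, a regulator of the pathway. They were taken from the table of reads per gene by matching its NCBI gene identifiers to these symbols, and all 7 of 7 were found among the 19790 identifiers of the table. RNA-seq data came from gWAT of 6 mice of strain C57BL/6 and genotype Wild-type, of which 3 had eaten a normal chow diet (NCD) and 3 an HFD, a high-fat diet, over 8 weeks. The labels give an age of 6 weeks at the start of the diet and the methods give 8 weeks. All mice shared strain and genotype and none carried a transgene or received an agent by the labels. The labels tell the mice apart by replicate number and do not give litter, cage or day.

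The libraries held 49575113 to 66360046 counts. Levels are given as CPM, the count of a gene relative to its library size, with library sizes scaled by trimmed mean of M-values (TMM) factors. One control library stood apart. A set of 11 secretory genes of the seminal vesicle, a gland that lies against this fat depot in male mice, took 58.6% of the counts of NCD replicate 1, 11.2% of NCD replicate 2 and 2.30% of NCD replicate 3, against 6, 8 and 2 counts in the HFD libraries. NCD replicate 1 also had the lowest summed level of the 9 adipocyte markers. The diet comparison of each of the 7 genes is therefore given with it and without it. Leaving it out does not remove the difference, since the other NCD libraries also held seminal vesicle RNA. In that fit 11 of 11 secretory genes, 4 of 7 epithelial and 3 of 6 smooth muscle markers were called lower on HFD. Over all genes tested in it, 10.1% were. The adipocyte markers were present in every library, with a summed level of 5687 to 29317 CPM on NCD and 11989 to 15808 CPM on HFD. In the other two NCD mice their summed level was 21222 to 29317 CPM, above every HFD mouse. Macrophage markers (9 genes) summed to 377 to 915 CPM on NCD and 2249.7 to 3570.0 CPM on HFD. Smooth muscle markers (6 genes) summed to 229 to 6539 CPM on NCD and 216 to 303 CPM on HFD, and epithelial markers (7 genes, of which *Cldn4*, *Cldn7* and *Elf3* were at 0 in at least 1 library) to 28.2 to 1200.1 CPM and 15.7 to 78.5 CPM, with NCD replicate 1 the highest in both. The summed ranges of stromal (858 to 1152 and 1010.5 to 1489.6 CPM), endothelial (202 to 687 and 680 to 818 CPM) and mesothelial markers (70.8 to 202 and 127 to 451 CPM) overlapped between NCD and HFD. Single genes in them still differed. With 6 libraries 1 of 5 stromal (*Col1a1*, 4.32-fold) and 1 of 4 mesothelial markers (*Msln*, 4.65-fold) were called higher on HFD. Of the 4 endothelial markers 0 were, and 5.58% of all genes tested. The part of these other cell types in the results was not tested.

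Cells make cholesterol from acetyl-CoA. *Hmgcs1* encodes the cytosolic synthase that makes HMG-CoA, from which mevalonate is formed. Phosphorylated mevalonate becomes isopentenyl diphosphate, which *Idi1* isomerises, and *Fdps* joins these units into farnesyl diphosphate, a branch point that also feeds protein prenylation, dolichol and coenzyme Q. *Fdft1* (squalene synthase) takes the first step that is committed to sterols, *Sqle* oxidises squalene, and *Lss* closes the ring to lanosterol. Most of these genes are known targets of the transcription factor SREBP-2, encoded by *Srebf2*, and *Insig1* encodes a protein of the endoplasmic reticulum that holds the SREBP escort protein SCAP there when sterols are plentiful. *Insig1* is itself a known SREBP target. In white fat, most cholesterol is held in adipocytes, largely as free cholesterol in membranes and at the lipid droplet.

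Of these 7 genes, 6 had lower mean levels on HFD and *Hmgcs1*, which acts first of them, did not differ beyond its spread. With all 6 libraries, *Fdps*, *Sqle* and *Lss* passed the threshold (edgeR's quasi-likelihood test, Benjamini-Hochberg adjusted p under 0.05 over all genes tested), so that 3 of 7 fell and 0 rose, where 1.90% of all 15241 genes tested were called lower and 5.58% higher. Without NCD replicate 1, 6 of 7 fell and 0 rose, against 10.1% of 15510 genes called lower and 10.7% called higher. In that same fit 5 of the 9 adipocyte markers fell (median log2 fold change -0.95), and with 6 libraries 0 of 9 did (median -0.54). The part of the adipocyte markers in the fall of the 7 genes was not tested. The median log2 fold change (HFD over NCD) of the 7 genes was -1.49 with 6 libraries and -1.79 without NCD replicate 1, beside -0.08 and 0.02 over all genes tested. In 5 of 7 genes every HFD value lay below every NCD value, as in 18.7% of all genes tested. With NCD replicate 1 kept and any other mouse removed, 0 of 7 genes passed, and 2 to 7 genes passed in the whole table. In bulk tissue, fewer cells of a type and less RNA per cell cannot be told apart.

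**Figure D1:**
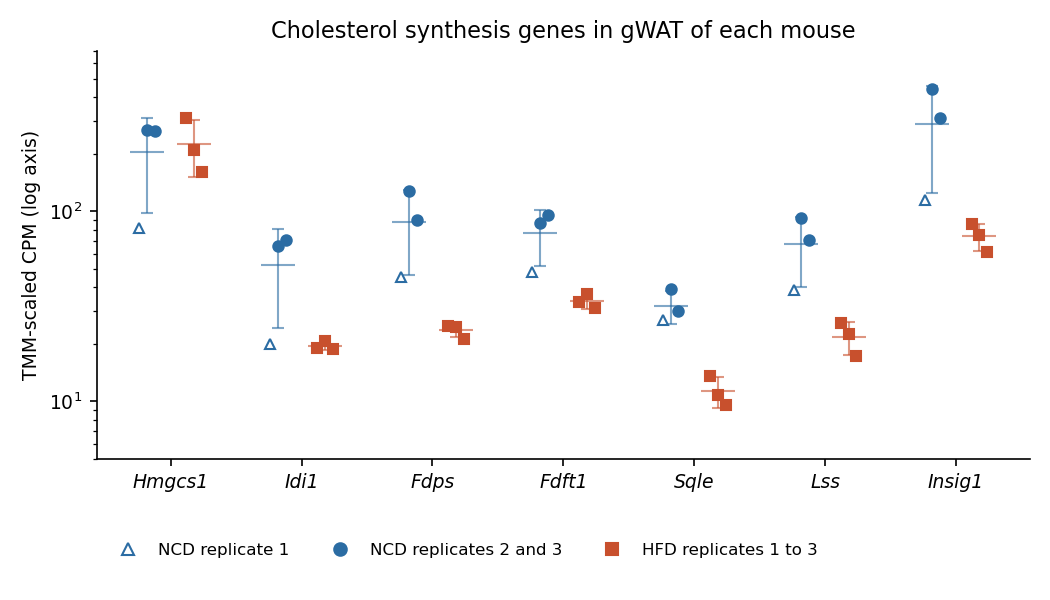
TMM-scaled CPM of the 7 genes in each mouse, on a log axis, with NCD and HFD mice as separate points and the group means marked. HFD mice lie below all NCD mice in 5 genes, *Idi1* overlaps through NCD replicate 1 alone, and *Hmgcs1* ranges from 81.9 to 266 CPM on NCD and from 162 to 308 CPM on HFD.

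*Hmgcs1* (gene ID 208715, chr13:119690351-119708260, GRCm38) stood at 81.9, 266 and 265 CPM in NCD replicates 1 to 3 and at 308, 210.5 and 162 CPM in HFD replicates 1 to 3. The groups overlapped, and the highest and the lowest of the 6 values were an HFD and an NCD mouse, respectively. The means were 204 ± 106 CPM on NCD and 227 ± 74.5 CPM on HFD (SD, n = 3 each). The log2 fold change was 0.15 (SE 0.494, edgeR adjusted p = 0.857) with 6 libraries and -0.22 (SE 0.274, edgeR adjusted p = 0.606) without NCD replicate 1, so its sign turned while its error spanned 0 in both fits. Without HFD replicate 1 it was -0.13.

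*Idi1* (gene ID 319554, chr13:8885606-8892396) was at 20.1, 66.1 and 70.8 CPM on NCD and at 19.2, 20.7 and 19.0 CPM on HFD. The 3 HFD mice were nearly equal, and NCD replicate 1 sat among them, away from the other two NCD mice. Its log2 fold change was -1.42 (SE 0.460, edgeR adjusted p = 0.107) with 6 libraries. Without NCD replicate 1 *Idi1* fell, with a log2 fold change of -1.79 (SE 0.105, edgeR adjusted p = 0.00544), which is 3.45-fold lower.

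*Fdps* (gene ID 110196, chr3:89093588-89101967) had 45.0, 128 and 90.6 CPM on NCD against 25.1, 24.7 and 21.4 CPM on HFD. Every HFD mouse was below every NCD mouse. *Fdps*, which makes the farnesyl diphosphate from which the sterol and non-sterol branches part, fell 3.70-fold with 6 libraries (log2 fold change -1.89, SE 0.378, edgeR adjusted p = 0.0414). The fall was 4.56-fold without NCD replicate 1 (log2 fold change -2.19, SE 0.172, edgeR adjusted p = 0.00544).

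*Fdft1* (gene ID 14137, chr14:63145150-63181687) had 48.2, 86.6 and 95.5 CPM on NCD and 33.3, 36.9 and 30.9 CPM on HFD. The groups did not overlap, yet the test with 6 libraries missed the threshold (log2 fold change -1.19, SE 0.274, edgeR adjusted p = 0.0539). Without NCD replicate 1 *Fdft1* fell 2.67-fold (log2 fold change -1.42, SE 0.121, edgeR adjusted p = 0.00544), the smallest change of the 6 genes that passed there.

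*Sqle* (gene ID 20775, chr15:59315092-59331193) was at 26.8, 39.0 and 29.8 CPM on NCD and at 13.7, 10.8 and 9.61 CPM on HFD. This gene for squalene monooxygenase, a rate-limiting enzyme of the sterol branch, had the tightest NCD values of the 7, and the groups were well apart. It fell 2.80-fold with 6 libraries (log2 fold change -1.49, SE 0.223, edgeR adjusted p = 0.0240) and by a like amount without NCD replicate 1 (log2 fold change -1.58, SE 0.198, edgeR adjusted p = 0.00859).

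*Lss* (gene ID 16987, chr10:76531565-76557139), for lanosterol synthase, had 38.8, 92.2 and 70.4 CPM on NCD and 25.8, 22.7 and 17.3 CPM on HFD. No HFD value reached the lowest NCD value. *Lss* fell 3.06-fold with 6 libraries (log2 fold change -1.61, SE 0.345, edgeR adjusted p = 0.0467) and 3.67-fold without NCD replicate 1 (log2 fold change -1.88, SE 0.203, edgeR adjusted p = 0.00686).

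*Insig1* (gene ID 231070, chr5:28071412-28078662), the regulator, was at 115, 443 and 311 CPM on NCD and at 85.5, 75.4 and 61.1 CPM on HFD. NCD replicate 1 was nearer to the HFD mice than to the other NCD mice, but the groups did not overlap. Its log2 fold change was -1.97 (SE 0.490, edgeR adjusted p = 0.0629) with 6 libraries. Without NCD replicate 1 *Insig1* fell 5.04-fold, more than the other 5 genes that passed there (log2 fold change -2.33, SE 0.215, edgeR adjusted p = 0.00611).

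In all 7 genes NCD replicate 1 was the lowest of the NCD mice. Its value was 77.8% of the mean of the other two NCD mice for *Sqle*, 53.0% for *Fdft1*, 47.7% for *Lss* and 41.2% for *Fdps*. It was 30.8% for *Hmgcs1*, 30.6% for *Insig1* and 29.3% for *Idi1*. The 3 genes that passed with 6 libraries were among the 4 in which this mouse was nearest to its group. The part of the seminal vesicle RNA in this spread was not tested.

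The start of 4 of the genes was present in the RefSeq promoter table of GRCm38.p6 used here (*Hmgcs1*, *Idi1*, *Lss* and *Insig1*). The 250 bases before each start in that table are printed, where the start of *Lss* lies inside the gene as located above. They are shown because *Hmgcs1* parted from the other genes in the diet comparison and because all of them are known SREBP targets. Capitals mark the core of a sterol response element (TCACNCCAC), the E-box (CACGTG) and the NF-Y box (CCAAT, which reads ATTGG on the other strand).
Hmgcs1: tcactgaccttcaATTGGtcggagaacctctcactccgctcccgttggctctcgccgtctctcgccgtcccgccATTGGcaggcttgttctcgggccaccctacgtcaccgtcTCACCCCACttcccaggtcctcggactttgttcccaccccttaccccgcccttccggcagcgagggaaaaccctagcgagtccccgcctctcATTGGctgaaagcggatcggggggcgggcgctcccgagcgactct
Idi1: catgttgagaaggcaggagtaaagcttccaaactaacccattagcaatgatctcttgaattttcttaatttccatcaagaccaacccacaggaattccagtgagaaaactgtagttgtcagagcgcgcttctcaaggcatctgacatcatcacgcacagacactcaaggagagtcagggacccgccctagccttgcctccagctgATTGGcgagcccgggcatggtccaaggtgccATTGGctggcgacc
Lss: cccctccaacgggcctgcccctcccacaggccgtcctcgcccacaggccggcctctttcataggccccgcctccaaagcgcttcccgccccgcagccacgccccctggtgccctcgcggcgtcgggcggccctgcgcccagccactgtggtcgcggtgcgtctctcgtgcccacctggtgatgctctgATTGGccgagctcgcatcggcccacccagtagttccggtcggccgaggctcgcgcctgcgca
Insig1: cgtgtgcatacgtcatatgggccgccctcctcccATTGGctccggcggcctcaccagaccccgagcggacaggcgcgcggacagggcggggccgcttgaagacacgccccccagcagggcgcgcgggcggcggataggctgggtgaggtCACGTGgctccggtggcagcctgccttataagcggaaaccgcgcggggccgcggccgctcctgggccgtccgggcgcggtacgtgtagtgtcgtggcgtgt

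These windows lie on the + strand at chr13:119690101-119690350 for *Hmgcs1*, chr13:8885356-8885605 for *Idi1*, chr10:76531355-76531604 for *Lss* and chr5:28071162-28071411 for *Insig1*. The search covered both strands of the 250 bases before to 50 bases after each start and included a further motif, the Sp1 box (GGGCGG), left in lower case above. None of the 4 motifs is contained in another. The sterol response element core was found in *Hmgcs1* alone, with its first base 137 bases before the start, and in 1.44% of 27025 genes with a promoter in the table. *Insig1* alone held the E-box, 101 bases before its start, which 8.09% of genes hold. All 4 held the NF-Y box, as 41.1% of genes do, and the Sp1 box, as 38.2% do. *Hmgcs1* had NF-Y boxes at 237, 176 and 45 bases before the start and at base 11 after it, *Idi1* at 45 and 14, *Lss* at 62 and *Insig1* at 216. Among 13 other enzymes of the pathway with a promoter in the table, 0 held the sterol response element core, 3 the E-box, 12 the NF-Y box and 12 the Sp1 box. These matches describe the letters of the windows, and no binding was measured. Known SREBP targets among the 4 lacked the sterol response element core as searched, so its absence does not show that a site is missing.

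**Figure D2:**
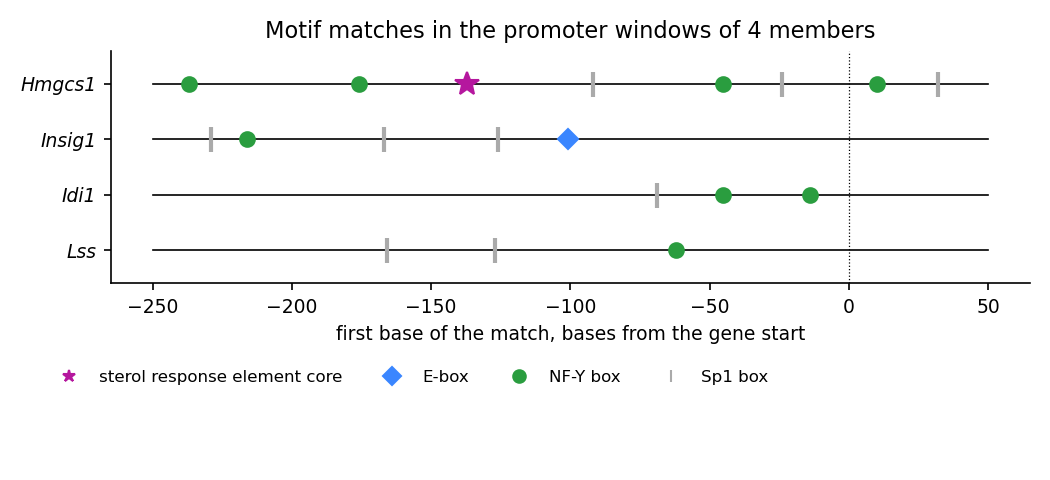
Position of each motif match relative to the transcription start (bases, negative before the start) for the 4 genes with a promoter in the table, coloured by motif. Each of the 4 holds at least 1 NF-Y box and 1 Sp1 box, and the single sterol response element core lies in *Hmgcs1*, 137 bases before its start.

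Levels of different genes were compared per length, as FPKM, the counts divided by library total and exon length. *Insig1* was the most abundant of the 7 genes in each of the 3 NCD mice (21.2, 168 and 124 FPKM), and *Hmgcs1* in each of the 3 HFD mice (102, 76.0 and 58.9 FPKM). *Hmgcs1* and *Fdps* came next on NCD, in changing order. On HFD all 3 mice had the same order, *Hmgcs1*, *Insig1*, *Fdps*, *Fdft1*, *Idi1*, *Lss* and *Sqle*. Mean levels were 57.1 ± 39.4 FPKM on NCD and 79.1 ± 21.9 FPKM on HFD for *Hmgcs1*, and 104 ± 75.1 and 33.5 ± 4.25 FPKM for *Insig1* (SD, n = 3 each). *Sqle*, the least abundant by its mean over all mice, had 10.3 ± 4.95 FPKM on NCD and 5.02 ± 0.664 FPKM on HFD. These FPKM carry no TMM factor, and seminal vesicle genes took 58.6% of the counts of NCD replicate 1. *Hmgcs1* was at 11.6 FPKM there, against 78.2 and 81.5 FPKM in NCD replicates 2 and 3. The FPKM means are therefore no comparison of the diets.

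Neighbours in the order of mean level over the 6 mice (*Insig1*, *Hmgcs1*, *Fdps*, *Fdft1*, *Idi1*, *Lss*, *Sqle*) were compared within each mouse on log2(FPKM + 1). The order was set from these same mice and pools both diets, so the differences are a description, with no test. *Fdps* was above *Fdft1* in 6 of 6 mice, by 1.10 ± 0.428 on the log2 scale (mean and SD, n = 6). *Fdft1* was above *Idi1* in 6 of 6 mice, by 0.39 ± 0.259. *Insig1* was above *Hmgcs1* in 3 of 6 mice, those fed NCD, and the mean difference, -0.18 ± 1.13, was smaller than its spread. For the other pairs, *Hmgcs1* was above *Fdps* in 4 of 6 mice, *Idi1* above *Lss* in 5 of 6 and *Lss* above *Sqle* in 5 of 6, each by less than the SD of the difference.

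A ratio of 2 genes in the same mouse is free of the scaling between libraries. After the values above had been seen, the level of *Hmgcs1* was therefore divided by that of each of the other 6 genes in each mouse. The ratio of *Hmgcs1* to *Insig1* was 0.550, 0.466 and 0.659 on NCD and 2.79, 2.16 and 2.06 on HFD. Relative to *Fdps* the ratio was 0.759, 0.868 and 1.22 on NCD and 5.14, 3.56 and 3.15 on HFD. Both ratios were higher in every HFD mouse than in any NCD mouse.

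The ratios to the other 4 genes did not overlap between the diets either. The ratio of *Hmgcs1* to *Idi1* was 3.55, 3.50 and 3.25 on NCD and 14.0, 8.84 and 7.42 on HFD. For *Lss* it was 2.83, 3.87 and 5.04 on NCD and 15.98, 12.5 and 12.5 on HFD. For *Fdft1* and *Sqle* the NCD ratios spanned 1.80 to 3.27 and 2.42 to 7.04, and the HFD ratios 5.56 to 9.82 and 13.4 to 17.9, with NCD replicate 1 the lowest of all mice in both. The mean difference between diets on the log2 scale ran from 1.42 for *Fdft1* to 2.07 for *Insig1*. Since *Hmgcs1* was singled out for its own values in these mice, the ratios restate the fold changes above and are a description, with no test. Leaving out any of the 6 mice kept each difference positive, between 1.16 and 2.25. As a share of the summed FPKM of the 7 genes, *Hmgcs1* made up 17.4%, 18.8% and 23.1% on NCD and 54.2%, 46.1% and 44.0% on HFD.

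**Figure D3:**
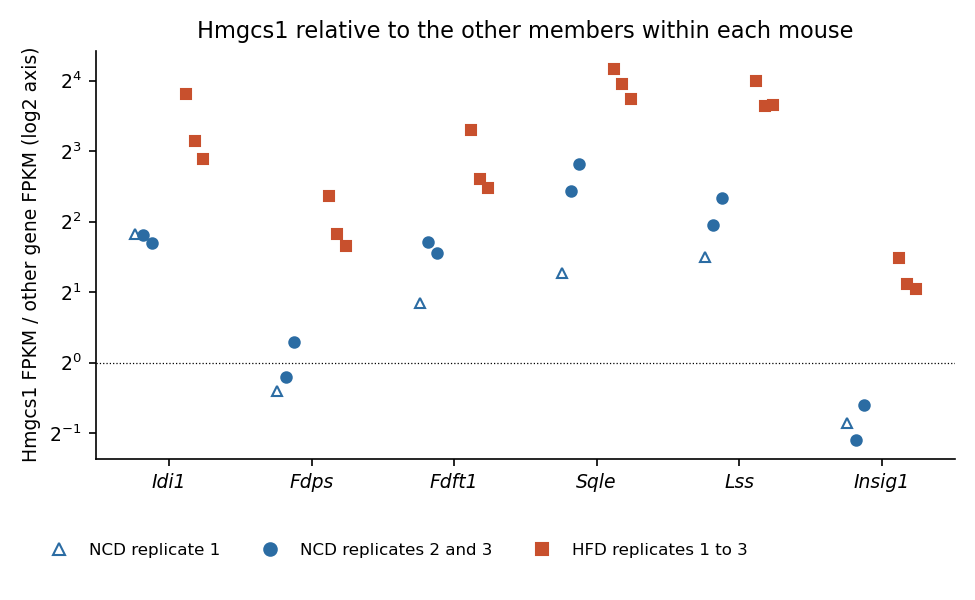
Ratio of the FPKM of *Hmgcs1* to that of each of the other 6 genes in each mouse, on a log axis, with NCD and HFD mice as separate points. For all 6 genes the 3 HFD mice lie above the 3 NCD mice, from 2.06 to 2.79 against 0.466 to 0.659 for *Insig1*.

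*Adipoq* (adiponectin), a product of adipocytes, was taken alone after the data had been seen. The planned ratio was to the 9 adipocyte markers together and is given further down. *Adipoq* itself had a log2 fold change of -0.16 (SE 0.605) with 6 libraries, so ratios to it largely restate the fold changes. Set against *Adipoq*, the 6 genes other than *Hmgcs1* were lower on HFD as well. *Insig1* had 10.4%, 12.5% and 5.53% of the FPKM of *Adipoq* on NCD and 2.51%, 2.18% and 2.57% on HFD. *Fdps* had 7.52%, 6.69% and 2.99% on NCD and 1.36%, 1.33% and 1.67% on HFD. *Sqle* had 2.36%, 1.07% and 0.518% on NCD and 0.392%, 0.307% and 0.395% on HFD. All 6 were without overlap between the diets, by -1.24 (*Fdft1*) to -1.89 (*Insig1*) on the log2 scale. The share of all genes without overlap was 18.7% (HFD below NCD) for CPM. It was not computed for ratios to *Adipoq*, so the 6 genes have no background here. Leaving out NCD replicate 1, the difference was -1.04 for *Sqle*, from -1.60, and -0.88 for *Fdft1*, and the other 4 genes were at -1.24 (*Idi1*) to -1.78 (*Insig1*). *Hmgcs1* had 5.71%, 5.81% and 3.65% on NCD and 7.01%, 4.72% and 5.28% on HFD, and the diets overlapped.

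The choice of adipocyte gene changed part of this. Against *Plin1* (perilipin, which coats the lipid droplet), *Hmgcs1* was higher on HFD in every mouse (58.0%, 36.0% and 42.4% against 31.7%, 23.0% and 23.8%), *Fdft1* overlapped between the diets, and the other 5 genes were lower without overlap. The difference over *Plin1* was -0.64 for *Fdft1* and -0.99 for *Sqle*, and without NCD replicate 1 it was -0.23 and -0.39. Summed over the 7 genes and set against the 9 adipocyte markers, the share was 2.81%, 2.28% and 1.304% on NCD and 1.502%, 0.969% and 1.01% on HFD, which overlap. The mean log2 difference of this sum was -0.83, but it was 0.19 when *Fabp4* was left out of the 9 markers and -1.47 when *Cfd* was left out, so no direction was read from it. These ratios were given as values, with no test, and the share of all genes without overlap in them was not computed.

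**Figure D4:**
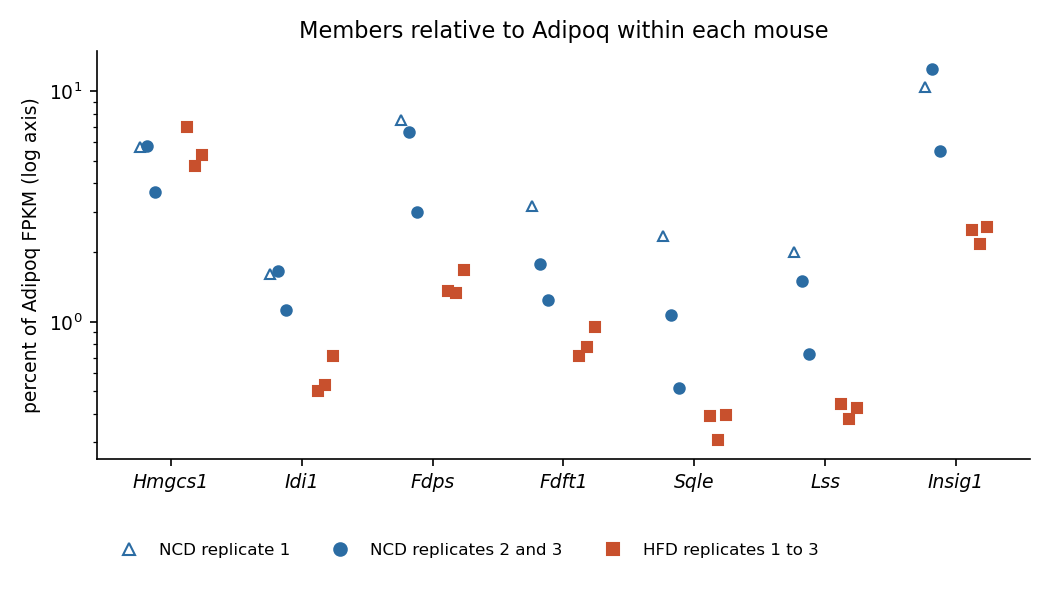
Level of each of the 7 genes as a percentage of the FPKM of *Adipoq* in the same library, on a log axis, with NCD and HFD mice as separate points. HFD mice lie below NCD mice for 6 genes. For *Hmgcs1* the diets overlap, with 3.65% to 5.81% on NCD and 4.72% to 7.01% on HFD.

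The other enzymes of the pathway were read from lists of genes, shown step by step in the plot of fold changes along the route. Of 4 listed enzymes of the early pathway (*Acat2*, *Mvk*, *Pmvk* and *Mvd*), 0 passed with 6 libraries and 4 fell without NCD replicate 1, where 1.90% and 10.1% of all genes tested were called lower. Their median log2 fold change was -1.53 with 6 libraries and -1.87 without that mouse. *Acat2*, the cytosolic thiolase that supplies the acetoacetyl-CoA used by *Hmgcs1*, was at 46.5, 150.4 and 188 CPM on NCD and at 29.7, 39.3 and 26.7 CPM on HFD. The diets did not overlap for *Acat2*, whose log2 fold change was -2.01 (SE 0.514, edgeR adjusted p = 0.0666) with 6 libraries and -2.39 (SE 0.205, edgeR adjusted p = 0.00544) without NCD replicate 1. *Mvk* (mevalonate kinase) overlapped between the diets through NCD replicate 1, with 15.2, 38.6 and 31.6 CPM on NCD and 18.7, 19.3 and 17.2 CPM on HFD.

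The 9 enzymes listed for the steps after lanosterol were less uniform. With 6 libraries *Cyp51* (lanosterol demethylase; log2 fold change -1.80, edgeR adjusted p = 0.0451) and *Tm7sf2* (a sterol reductase; -1.53, edgeR adjusted p = 0.0223) fell, and 0 of 9 rose. Leaving out NCD replicate 1, these were joined by *Nsdhl* (-2.36, edgeR adjusted p = 0.00625), so that 3 of 9 fell. *Lbr*, *Msmo1*, *Hsd17b7*, *Ebp*, *Sc5d* and *Dhcr7* did not pass in either fit. The median of the list was -0.54 with 6 libraries and -0.75 without that mouse. *Tm7sf2* and *Lbr* encode enzymes for the same reduction and went different ways. *Tm7sf2* was at 10.9, 12.6 and 11.7 CPM on NCD and at 4.66, 4.14 and 3.40 CPM on HFD. *Lbr*, also a protein of the nuclear envelope, was at 25.4, 29.9 and 33.4 CPM on NCD and at 36.1, 38.9 and 51.0 CPM on HFD, higher in every HFD mouse but not past the threshold (0.51, SE 0.192, edgeR adjusted p = 0.145, and 0.42, edgeR adjusted p = 0.158 without NCD replicate 1). Along the route of 19 listed enzymes, 5 fell and 0 rose with 6 libraries, and 12 fell and 0 rose without NCD replicate 1. These counts include *Hmgcs1* and the 5 other enzymes described above, and over all genes tested 1.90% and 10.1% were called lower.

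**Figure D5:**
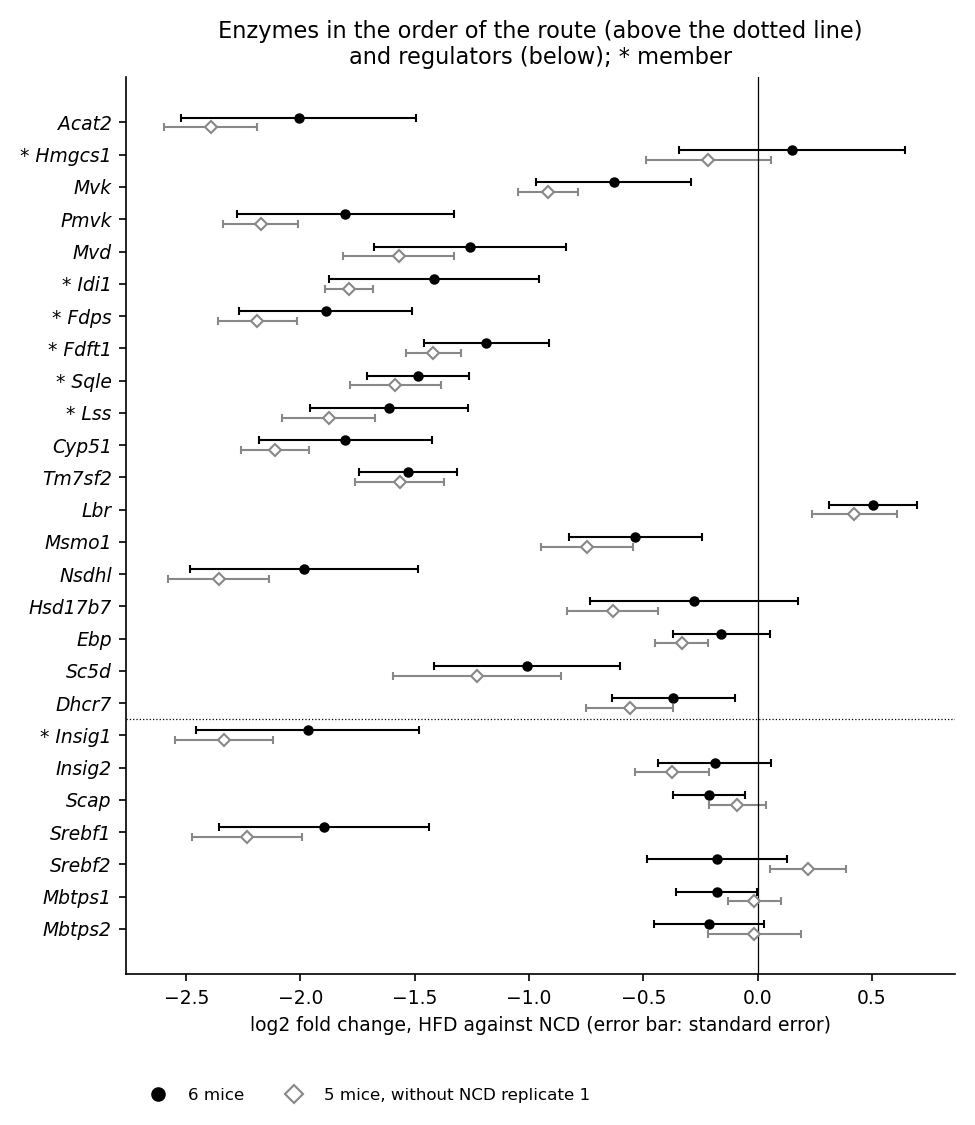
Log2 fold change (HFD over NCD) with its standard error for each listed enzyme of the route and for the regulators, in order of the pathway, from the fit with 6 libraries and the fit without NCD replicate 1. *Hmgcs1* lies at 0.15 and -0.22, *Acat2* at -2.01 and -2.39, and *Fdps* (-1.89 and -2.19) is the lowest of the 6 enzymes that were chosen.

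Of the 6 regulators of the SREBP pathway listed beside *Insig1*, 0 passed with 6 libraries and 1, *Srebf1*, fell without NCD replicate 1 (log2 fold change -2.23, edgeR adjusted p = 0.00686; -1.90, edgeR adjusted p = 0.0601 with 6 libraries). Over all genes tested, 1.90% and 10.1% were called lower in these fits, so 1 of 6 is no result about the regulators as a list. *Srebf1*, which encodes the SREBP known for fatty acid synthesis, was at 242, 708 and 656 CPM on NCD and at 121, 189 and 121 CPM on HFD. *Srebf2* was at 93.5, 57.3 and 40.5 CPM on NCD and at 57.0, 58.7 and 53.5 CPM on HFD, with a log2 fold change of -0.18 (SE 0.306, edgeR adjusted p = 0.725), and of 0.22 (edgeR adjusted p = 0.383) without NCD replicate 1. The NCD mice spanned the HFD mice for this SREBP-2 gene. *Insig2*, the paralogue of *Insig1*, had a log2 fold change of -0.19 (SE 0.247, edgeR adjusted p = 0.636), and of -0.38 (edgeR adjusted p = 0.152) without NCD replicate 1. *Scap*, *Mbtps1* and *Mbtps2* did not pass in either fit.

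Fatty acid synthesis genes known as SREBP-1 targets were also lower on HFD. With 6 libraries 5 of 6 fell, beside 1.90% of all genes tested (*Fasn*, *Acaca*, *Acly*, *Elovl6* and *Me1*), and without NCD replicate 1 *Scd1* did so as well. Their median log2 fold change was -3.84 with 6 libraries and -4.21 without that mouse, beside -1.49 and -1.79 for the 7 cholesterol genes. The difference between the lists was not tested. *Fasn* (fatty acid synthase) was at 3745, 17237 and 14996 CPM on NCD and at 217, 204 and 87.1 CPM on HFD.

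Of 9 genes of the isoprenoid branches that leave the pathway at or near *Fdps*, 0 passed with 6 libraries. In the fit without NCD replicate 1, *Fnta* (a prenyltransferase subunit) fell by 0.58 on the log2 scale (edgeR adjusted p = 0.0326) and *Nus1* (of dolichol synthesis) rose by 0.79 (edgeR adjusted p = 0.0377). This is 1 of 9 in each direction, near the 10.1% lower and 10.7% higher of all genes in that fit, and is no result about these branches. *Ggps1*, *Dhdds*, *Pdss1*, *Pdss2*, *Coq2*, *Fntb* and *Pggt1b* did not pass in either fit. Among 6 genes of cholesterol uptake, transport and storage, 2 rose and 0 fell with and without NCD replicate 1, where 5.58% and 10.7% of all genes tested were called higher. *Soat1*, which esterifies cholesterol for storage, was at 8.74, 15.6 and 12.2 CPM on NCD and at 144, 70.0 and 95.9 CPM on HFD (log2 fold change 3.08, SE 0.356, edgeR adjusted p = 0.0212, and 2.91, edgeR adjusted p = 0.00810 without NCD replicate 1). *Npc1*, which exports cholesterol from lysosomes, rose by 1.34 (SE 0.231, edgeR adjusted p = 0.0298), and by 1.18 (edgeR adjusted p = 0.0125) without NCD replicate 1. *Npc2*, *Stard4*, *Scarb1* and *Vldlr* did not pass in either fit. Both *Soat1* and *Npc1* are also expressed by macrophages, whose markers passed as higher in 4 of 9 genes with 6 libraries and in 8 of 9 without NCD replicate 1; their part in these 2 genes was not tested. Each gene of these further lists that passed with 6 libraries (*Cyp51*, *Tm7sf2*, *Soat1*, *Npc1* and the 5 fatty acid synthesis genes) missed the threshold on removal of any single mouse besides NCD replicate 1, with its direction kept.

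The genes outside these lists whose levels followed the mean of the 7 most closely were *Sbk1*, *Cs*, *Lactb2*, *Atl2* and *Cyc1*, by the root mean square difference of centred log2 CPM over the 6 libraries (0.0576 to 0.140). The 6 genes other than *Hmgcs1* lay at 0.182 (*Lss*) to 0.332 (*Sqle*) from the mean of the 7, and *Hmgcs1* at 0.793. The nearest genes were picked for their closeness among all genes tested, so their smaller distances are no result. Without NCD replicate 1 the nearest were *Sbk1*, *Lactb2*, *Clstn3*, *Uck1* and *Cs* (0.0193 to 0.113). *Cs* encodes citrate synthase, which makes the citrate from which cytosolic acetyl-CoA is drawn, and *Cyc1* encodes cytochrome c1 of the respiratory chain.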

How the data were processed

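gWAT of 3 NCD and 3 HFD mice was sequenced from TRIzol RNA with a TruSeq mRNA kit (stranded per the labels) on a NovaSeq. The authors deposited raw read counts per NCBI gene identifier, 1 column per mouse, without normalization. The submitters' processing notes name bcl2fastq 2.20.0, Trimmomatic, HISAT2 2.1.0, StringTie 1.3.4d and DESeq2 and the builds mm10 and GRCm38, with no role given. For reads shared between genes, the counting rule was not found in the sources used here. The third HFD mouse carries the number 4 in its column name.

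Symbols and coordinates came from RefSeq GRCm38.p6 (19742 of 19790 identifiers matched). The test was edgeR's quasi-likelihood F-test (version 4.0.16 in R 4.3.3) with TMM factors, after filterByExpr with a count of at least 10 and a total of at least 15, adjusted over all genes kept at a threshold of 0.05. The SE is the log2 fold change over the square root of F. P-values set the diet difference against the spread between these mice. The NCD libraries differed in their share of seminal vesicle RNA, and its part in that spread was not tested. FPKM were computed here with GENCODE vM21 exon lengths and a pseudocount of 1 on the log2 scale. The fit was also run on simulated counts in which all libraries shared a mean profile apart from the changed genes. That run cannot speak for libraries with unequal seminal vesicle RNA.

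The 7 genes and all lists were chosen with earlier results of these data known. Genes were named from the lists, plus the 5 of nearest profile in each fit. Alternatives were no filter, other scalings, removal of the 11 secretory genes, DESeq2 1.42.0, limma 3.58.1 voom with quality weights, a replicate block and each mouse left out. Leave-one-out of the *Hmgcs1* ratios and *Adipoq* alone were chosen after seeing the data. The ratios to *Plin1* alone were not planned either. *Idi2* was listed but not analysed here, and some further genes of the lists are not reported here.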

Additional observations from a re-analysis of the deposited data

How the results depend on the processing

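The number of calls depended more on single mice than on scaling. Against 1139 genes and 3 of the 7 genes, median-of-ratios scaling called 1135 and 3, upper-quartile scaling 1012 and 2, no filter 803 and 1, and removal of the secretory genes 1125 and 3. DESeq2 called 3904 of 15241 genes, 1751 of them lower, and 6 of the 7. Limma voom with quality weights called 5570 of 15241 and 6. Its weights were 0.134, 3.34 and 1.05 for NCD replicates 1 to 3 and 0.695, 2.98 and 1.025 for HFD replicates 1 to 3. Replicate 2 thus had by far the largest weight on each diet. Of those 5570 genes 2747 were lower, where the edgeR fit with 6 libraries called 289 lower. Leaving out 1 mouse gave 2 to 3234 genes and 0 to 6 of the 7. Of the 28 genes of the pathway lists, 2 passed, and 1 without a filter, 1 with upper-quartile scaling, 8 with DESeq2, 18 with voom and 0 to 10 leaving out 1 mouse. The 8 of 28 with DESeq2 are near its 3904 of 15241 over all genes and are no result about these lists. The 10 without NCD replicate 1 were 9 lower and 1 higher, where 10.1% and 10.7% of all genes were.

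With a replicate block 12 genes, 0 of the 7 and 0 of the 28 passed, and *Fdps* was at -1.77, *Sqle* at -1.49 and *Lss* at -1.55. Deviations of same-numbered mice correlated at -0.06, -0.05 and 0.01, and 0 of 6 libraries were closest to their own number. The NCD libraries differed in seminal vesicle RNA, and its part in these deviations was not tested. Whether the numbers pair the mice was not tested further, since the labels give no litter, cage or day. *Fdps* (-1.88) and *Lss* (-1.60) missed the threshold without a filter, and *Lss* (-1.62) with upper-quartile scaling. *Idi1*, *Fdft1* and *Insig1* passed with DESeq2 (-1.41, -1.18 and -1.97) and with voom (-1.69, -1.31 and -2.40). *Hmgcs1* was at -0.28 with voom. The cause of these shifts was not tested.

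Leaving out 1 mouse gave -0.22 to 0.39 for *Hmgcs1*, -1.79 to -1.12 for *Idi1*, -2.19 to -1.52 for *Fdps*, -1.42 to -0.99 for *Fdft1*, -1.63 to -1.32 for *Sqle*, -1.88 to -1.32 for *Lss*, -2.33 to -1.53 for *Insig1* and -1.79 to -1.32 for their median. Over the 13 alternatives the adjusted p ran from 0.416 to 0.902 for *Hmgcs1*, 0.00169 to 0.294 for *Idi1*, 8.75e-05 to 0.167 for *Fdps*, 0.00151 to 0.201 for *Fdft1*, 3.60e-07 to 0.108 for *Sqle*, 0.000409 to 0.178 for *Lss* and 0.00105 to 0.221 for *Insig1*. The summed share over adipocyte markers moved from -0.83 to 0.19 without *Fabp4* and to -1.47 without *Cfd*, and between -1.15 and -0.60 leaving out 1 mouse. As CPM without division by length, *Fdps* over *Fdft1* turned to -0.18 and *Idi1* over *Lss* to -0.29. Leaving out 1 mouse gave -0.43 to 0.078 for *Insig1* over *Hmgcs1*.

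Signs turned in genes near 0. *Pggt1b* was at 0.016 without a filter, 0.0076 with upper-quartile scaling, 0.023 without the secretory genes, 0.18 with voom and 0.054 with the block, *Srebf2* at 0.095 with voom and *Scarb1* at 0.14 with the block. Leaving out 1 mouse gave ranges that crossed 0 for *Pggt1b* (-0.21 to 0.31), *Srebf2* (-0.40 to 0.22), *Scarb1* (-0.41 to 0.26), *Stard4* (-0.60 to 0.0068), *Hsd17b7* (-0.63 to 0.19), *Insig2* (-0.38 to 0.029) and *Vldlr* (-0.79 to 0.052). With 3 mice a diet and a biological coefficient of variation of 0.424, which was 0.288 without NCD replicate 1, the spread between mice exceeded counting error, since the 7 genes had 603 to 26463 counts per library.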
